A study of Mus musculus with 6 samples.

Results

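Genes of the vessel wall were examined in subcutaneous white adipose tissue (scWAT) of mice lacking *Yap* and *Taz* in mature adipocytes. The set held 10 of the 55401 genes counted: 6 markers of endothelial cells (*Pecam1*, *Cdh5*, *Kdr*, *Flt1*, *Tek* and *Tie1*) and 4 angiogenic factors (*Vegfa*, *Vegfb*, *Angpt1* and *Angpt2*). They were chosen by name, and each was found once in the counts by its gene identifier. Bulk RNA-seq had been done on scWAT of 8-week-old male mice kept at room temperature, 3 per genotype. Both groups carried floxed alleles of *Yap* and *Taz*. The controls had no Cre recombinase and are called YT-FF here after the methods of the study, although the sample labels give their genotype as WT. The other group, YT-AKO (Yapfl/fl/Tazfl/fl;AdipoqCre), carried Cre under the promoter of *Adipoq*, which is active in mature adipocytes, so the vessel wall itself was not the target of the deletion.

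Endothelial cells line blood vessels and, in fat, hand fuel and oxygen to adipocytes and carry heat away from them. Adipocytes and other cells of the tissue secrete VEGF-A, which binds the receptor tyrosine kinases encoded by *Kdr*, the main signalling receptor, and *Flt1*, which holds the ligand with high affinity and signals weakly. Angiopoietin 1, made largely by cells around the vessel, activates the receptor encoded by *Tek* (Tie2) and keeps vessels quiet and tight, whereas angiopoietin 2 is released by endothelium itself and can oppose it. *Tie1* encodes a partner of Tie2 with no ligand of its own in the angiopoietin system, *Pecam1* and *Cdh5* encode adhesion proteins of endothelial cell contacts, and *Vegfb* encodes a VEGF that binds the *Flt1* product.

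The 6 libraries held 17740987 to 21838493 counted fragments. Values below are CPM, counts scaled to a common library size with TMM factors, which correct for differences in composition between libraries, and p-values come from the quasi-likelihood test of edgeR, adjusted by Benjamini-Hochberg over 16807 tested genes. The TMM factors were 1.07 to 1.16 in YT-FF and 0.954, 0.777 and 0.955 in YT-AKO 1, 2 and 3, so that YT-AKO 2 stood apart from the other 5 libraries. *Yap1* fell, with a log2 fold change of -0.98 (adjusted p = 0.0179), and *Wwtr1*, which encodes TAZ, rose by 0.89 (adjusted p = 0.0220), against the label. At the protein level, the paper reports by immunoblot that both YAP and TAZ were clearly reduced in YT-AKO scWAT. Counts over all exons of a gene do not separate the deleted exons, and the group is named below as the libraries labelled YT-AKO or, for short, YT-AKO. At an adjusted p under 0.05, 12.6% of the tested genes were higher and 9.01% lower in YT-AKO, 21.6% in all.

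Of the 10 genes, all of which were tested, *Kdr* and *Angpt1* fell and none rose. *Angpt1* dropped to 0.497 and *Kdr* to 0.583 of the YT-FF level. The other 8 did not pass the threshold, among them *Pecam1*, *Cdh5*, *Tek* and *Tie1*. The log2 fold changes were below 0 for 7 of the 10, compared with 51% of all tested genes. In bulk tissue, fewer endothelial cells and less RNA of a gene per endothelial cell cannot be told apart. With stricter limits in the edgeR fit (adjusted p below 0.01, log2 fold change beyond 1 in size), 0.125% of tested genes and none of the 10 passed. The smallest edgeR adjusted p of any tested gene was 0.00729. DESeq2 called the same 2 of the 10 lower and none higher, with 12.6% of its tested genes lower and 16.2% higher. In DESeq2 *Angpt1* also met the stricter limits (log2 fold change -1.02, adjusted p = 2.93e-05), and *Kdr*, at -0.79, did not. The share of all genes that met them in DESeq2 was not counted.

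*Kdr* (ENSMUSG00000062960.10, chr5:75932827-75978458, minus strand, GRCm38) measured 104, 119 and 116 CPM in YT-FF 1, 2 and 3 and 80.5, 49.2 and 68.1 CPM in YT-AKO 1, 2 and 3. Every YT-AKO library lay below every YT-FF library, and YT-AKO 2 was the lowest. The group means were 113 ± 7.86 and 65.9 ± 15.8 CPM (SD, n = 3 each), a log2 fold change of -0.78 (SE 0.203, 95% interval -1.25 to -0.31, edgeR adjusted p = 0.0358). The call was lost without YT-FF 1, 2 or 3 or YT-AKO 3, where the edgeR adjusted p was 0.123, 0.141, 0.0900 and 0.0652, while the log2 fold change stayed between -0.94 and -0.61. It was also lost after a correction for gene length in each library, which brought the log2 fold change to -0.44 (adjusted p = 0.0995). Without YT-FF 1, 0 of all tested genes were called, and without YT-FF 2, 0 were called higher and 2 lower.

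*Angpt1* (ENSMUSG00000022309.9, chr15:42424723-42676977, minus strand) measured 37.8, 38.3 and 43.0 CPM in YT-FF and 20.3, 17.9 and 20.9 CPM in YT-AKO. The groups were far apart and each was tight, with means of 39.7 ± 2.87 and 19.7 ± 1.62 CPM (SD, n = 3 each). The log2 fold change was -1.01 (SE 0.153, 95% interval -1.36 to -0.66, edgeR adjusted p = 0.0171), and it was -0.90 after the length correction (adjusted p = 0.0171). Leaving out single libraries kept it between -1.05 and -0.94. Without YT-FF 1 or YT-FF 2, where hardly any tested gene was called, the adjusted p was 0.110 and 0.111. The exons of *Angpt1* share 14.2% of their bases with the antisense gene *Gm17473*, and counting did not use strand.

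*Vegfa* (ENSMUSG00000023951.18, chr17:46016993-46032369, minus strand), the central growth factor for endothelium, measured 334, 342 and 299 CPM in YT-FF and 292, 149 and 263 CPM in YT-AKO. All 3 YT-AKO libraries were lower than all YT-FF libraries, but YT-AKO 1 lay only just below YT-FF 3 and YT-AKO 2 far below the rest. The log2 fold change was -0.47 (SE 0.258, 95% interval -1.07 to 0.126), and the edgeR adjusted p of 0.204 missed the threshold. It was -0.23 without YT-AKO 2. *Vegfb* (ENSMUSG00000024962.13, chr19:6982473-6987651, minus strand) was placed the other way, at 137, 131 and 160 CPM in YT-FF and 164, 177 and 191 CPM in YT-AKO. Its log2 fold change of 0.32 (SE 0.157, 95% interval -0.048 to 0.68, edgeR adjusted p = 0.168) turned to -0.07 after the length correction, -0.12 after a correction for GC content and -0.01 when libraries were scaled by their totals alone. *Angpt2* (ENSMUSG00000031465.6, chr8:18690263-18741562, minus strand), the least abundant of the 10, had overlapping groups, with 7.42, 6.99 and 7.16 CPM in YT-FF and 8.26, 5.37 and 8.57 CPM in YT-AKO. Its log2 fold change was 0.04 (95% interval -0.53 to 0.61), and it was negative with totals alone (-0.26) or without YT-AKO 1 or 3.

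The endothelial cell contact genes were lower in YT-AKO without passing the test. *Pecam1* (ENSMUSG00000020717.19, chr11:106654217-106750628, minus strand) measured 222, 220 and 208 CPM in YT-FF and 206, 190 and 171 CPM in YT-AKO, groups that were next to each other without overlap. The log2 fold change was -0.20 (SE 0.152, 95% interval -0.55 to 0.15, edgeR adjusted p = 0.349) and came to -0.01 after the length correction. *Cdh5* (ENSMUSG00000031871.9, chr8:104101625-104144511, plus strand) measured 153, 156 and 159 CPM in YT-FF, which hardly varied, and 137, 66.9 and 125 CPM in YT-AKO. YT-AKO 2 was the lowest. The log2 fold change was -0.51 (95% interval -1.12 to 0.097, edgeR adjusted p = 0.180) and -0.25 without that library.

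Among the other receptors, *Flt1* (ENSMUSG00000029648.13, chr5:147561604-147726011, minus strand) measured 64.5, 75.8 and 64.3 CPM in YT-FF and 67.7, 42.5 and 41.0 CPM in YT-AKO. YT-AKO 1 lay inside the YT-FF range, and without it the log2 fold change went from -0.44 (edgeR adjusted p = 0.177) to -0.70 (adjusted p = 0.0363). *Flt1* has the longest exons of the 10, at 13504 bp, and the length correction brought it to 0.05. *Tek* (ENSMUSG00000006386.15, chr4:94739289-94874976, plus strand) was lower in every YT-AKO library, at 33.3, 32.0 and 28.3 CPM compared with 38.0, 43.8 and 36.3 CPM in YT-FF, and its log2 fold change was -0.34 (95% interval -0.69 to 0.020, edgeR adjusted p = 0.140). It passed the threshold only with library totals alone, the scaling that gave a negative log2 fold change for all 10 genes and shifted the median over all genes from -0.02 to -0.34. With that scaling, 1137 genes were called higher and 2828 lower, compared with 2121 and 1515 with TMM. *Tie1* (ENSMUSG00000033191.14, chr4:118471191-118490061, minus strand), the only endothelial marker of the 6 with a positive log2 fold change, measured 79.7, 75.0 and 78.2 CPM in YT-FF and 97.3, 83.8 and 74.1 CPM in YT-AKO. The groups overlapped, the log2 fold change was 0.13 (95% interval -0.23 to 0.49, edgeR adjusted p = 0.545), and it was negative after the GC correction (-0.18) and with totals alone (-0.19).

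**Figure D1:**
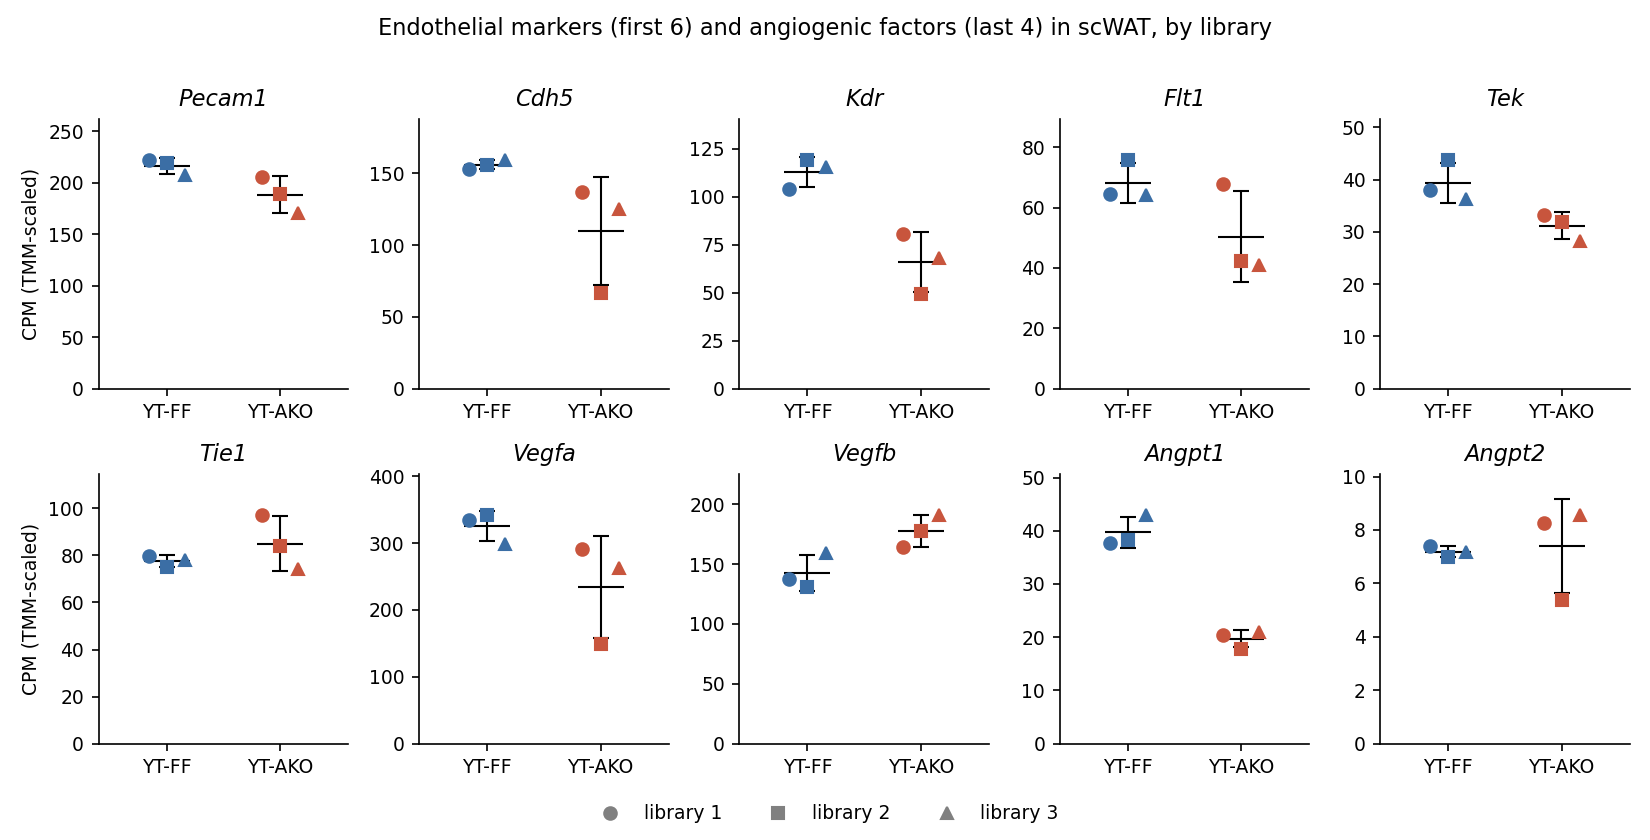
Points give the TMM-scaled CPM of each gene in each library, with a linear axis from 0 in every panel, and marker shape gives the library number. Lines and bars are the mean and SD of the 3 libraries of a genotype. *Kdr* and *Angpt1* show YT-AKO libraries well below all YT-FF libraries, and YT-AKO 2 is the low point for *Cdh5*, *Kdr*, *Vegfa*, *Angpt1* and *Angpt2*.

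The 6 endothelial markers had a median log2 fold change of -0.39, with a range of -0.78 to 0.13, and 5 were below 0. These are long genes, of 4203 to 13504 bp of exons, and log2 fold change was lower for longer exons across all tested genes (Spearman -0.376, over genes, and -0.283 without YT-AKO 2). Of the 7198 tested genes in the same length range, 66.3% were below 0, 13.4% were called lower, and the median log2 fold change was -0.24, compared with -0.02 over all tested genes. After the length correction, the median of the 6 markers was -0.13 and none of them was called. With every setting tried, none of the 10 genes was called higher. In CPM, 4 endothelial markers (*Pecam1*, *Cdh5*, *Kdr* and *Tek*) and 2 factors (*Vegfa* and *Angpt1*) were lower in all YT-AKO libraries than in all YT-FF libraries, and *Vegfb* was higher in all, where 25.8% of tested genes were lower without overlap and 25.7% higher.

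**Figure D2:**
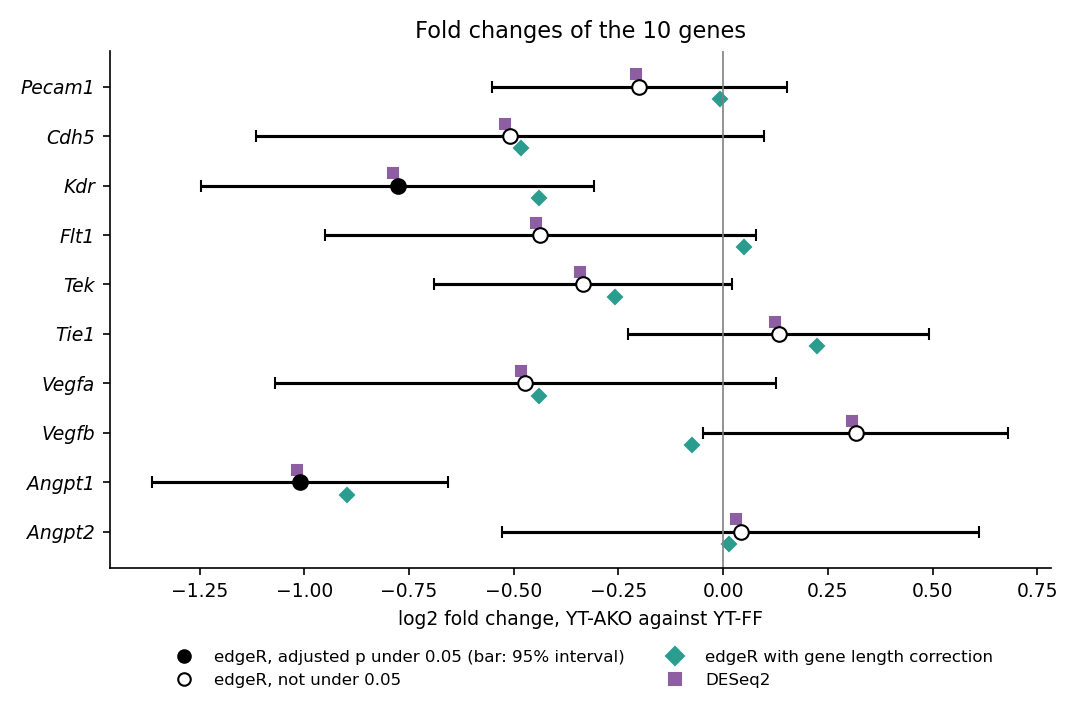
Circles give the edgeR log2 fold change of YT-AKO against YT-FF for each gene with its 95% interval, filled where the adjusted p was under 0.05. Squares are DESeq2 and diamonds are edgeR with the gene length correction. *Kdr* and *Angpt1* are filled, *Angpt1* moves little with the correction, and *Flt1* and *Vegfb* move across 0.

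Transcript levels were compared between genes per length, as TPM, the share of length-corrected counts in a library, from summed exon lengths. In YT-FF, the order of TPM levels was *Vegfb* (336 ± 19.5), *Vegfa* (289 ± 33.0), *Cdh5* (141 ± 5.02), *Pecam1* (132 ± 10.3), *Tie1* (59.9 ± 2.47), *Kdr* (47.5 ± 4.07), *Tek* (31.8 ± 4.50), *Angpt1* (28.9 ± 0.964), *Flt1* (19.2 ± 2.61) and *Angpt2* (7.40 ± 0.370; SD, n = 3). Only the neighbours *Cdh5* and *Pecam1*, and *Tek* and *Angpt1*, overlapped between libraries. In YT-AKO, the TPM level of *Vegfb* (268 ± 67.0) was still above *Vegfa* (139 ± 68.8), *Pecam1* (73.4 ± 19.5) came before *Cdh5* (66.6 ± 33.9), and *Angpt1* (9.28 ± 2.83) was next to *Flt1* (9.25 ± 4.32). There the only neighbours without overlap were *Vegfb* and *Vegfa*, *Tie1* and *Kdr*, and *Tek* and *Angpt1*. TPM levels of 9 of the 10 genes, all but *Vegfb*, were lower in all YT-AKO libraries, as were 54.5% of all tested genes on that scale (7.52% were higher).

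Ratios within a library do not depend on scaling between libraries, and were formed from counts per kilobase of exon. *Angpt2* to *Angpt1*, ligands of Tie2, was 0.278, 0.258 and 0.236 in YT-FF and 0.573, 0.425 and 0.579 in YT-AKO, so that all YT-AKO libraries were higher. On the log2 scale the ratio went from -1.96 ± 0.119 to -0.94 ± 0.253 (SD), a difference of 1.02. *Vegfa* to *Vegfb* was 0.910, 0.980 and 0.702 in YT-FF and 0.665, 0.314 and 0.515 in YT-AKO, a log2 difference of -0.85 that became -0.41 after the length correction and -0.55 without YT-AKO 2 (exact permutation p = 0.2 for both). *Tek* to *Tie1* was 0.498, 0.609 and 0.485 in YT-FF and 0.358, 0.398 and 0.399 in YT-AKO, lower in all YT-AKO libraries by a log2 difference of -0.46. *Flt1* to *Kdr* overlapped between the groups, with 0.414, 0.425 and 0.372 in YT-FF and 0.562, 0.577 and 0.403 in YT-AKO (log2 difference 0.33). The two-sided exact permutation test gave p = 0.1 for the first 3 ratios, the smallest that 3 against 3 libraries allow, and p = 0.3 for *Flt1* to *Kdr* (adjusted over the 4 ratios, 0.133 and 0.3).

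**Figure D3:**
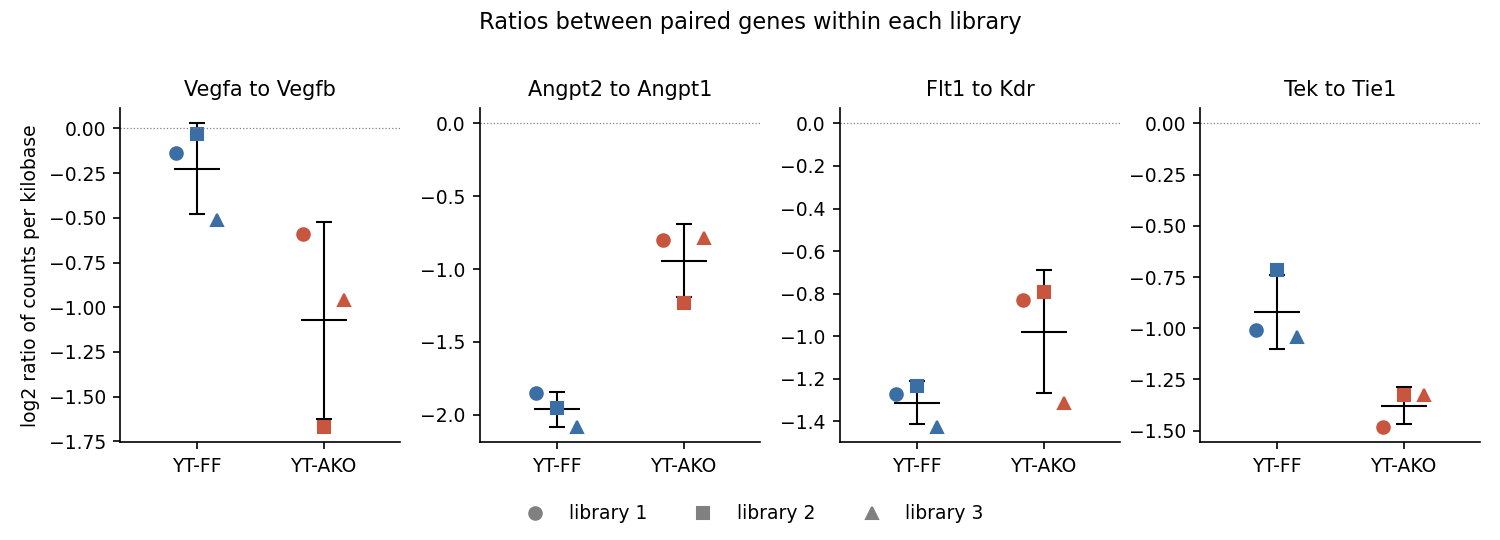
Points give the log2 ratio of counts per kilobase of exon for 4 gene pairs in each library, with the mean and SD of each genotype. The dotted line marks equal levels, and axes differ between panels. The groups are apart for all pairs but *Flt1* to *Kdr*, where YT-AKO 3 lies within the range of YT-FF.

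The bases just before the annotated start of *Kdr*, the VEGF receptor that fell, are shown with those of its ligand *Vegfa*, of *Vegfb*, which was placed the other way, and of *Tie1*, the endothelial marker with a positive log2 fold change. The 300-base RefSeq promoter windows (GRCm38.p6, 250 bases before to 50 after a start) were searched on both strands. The motifs were GGAATG, the core bound by TEAD factors, CGGAAG, an ETS core common at endothelial genes, and ACGTG or GCGTG, the hypoxia response core. TEAD factors are partners of YAP and TAZ, although the paper reports that YAP and TAZ lowered *S100b* without binding them. Capitals mark a match.
*Kdr* (chr5:75978456-75978705, minus strand): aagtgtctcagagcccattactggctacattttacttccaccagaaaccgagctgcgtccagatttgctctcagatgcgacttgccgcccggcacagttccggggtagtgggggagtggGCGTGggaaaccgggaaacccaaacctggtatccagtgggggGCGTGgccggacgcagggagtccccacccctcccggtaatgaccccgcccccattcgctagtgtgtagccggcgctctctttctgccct
*Tie1* (chr4:118489850-118490099, minus strand): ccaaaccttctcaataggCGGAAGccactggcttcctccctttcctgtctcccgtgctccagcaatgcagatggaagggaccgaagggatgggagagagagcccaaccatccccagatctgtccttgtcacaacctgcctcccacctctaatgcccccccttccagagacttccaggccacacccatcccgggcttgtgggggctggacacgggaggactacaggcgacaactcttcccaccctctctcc
*Vegfa* (chr17:46032378-46032627, minus strand): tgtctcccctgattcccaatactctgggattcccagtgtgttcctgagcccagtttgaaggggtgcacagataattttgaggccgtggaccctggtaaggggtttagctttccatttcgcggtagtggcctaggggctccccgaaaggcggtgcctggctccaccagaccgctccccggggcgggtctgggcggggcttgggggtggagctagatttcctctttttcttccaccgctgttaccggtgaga
*Vegfb* (chr19:6987652-6987901, minus strand): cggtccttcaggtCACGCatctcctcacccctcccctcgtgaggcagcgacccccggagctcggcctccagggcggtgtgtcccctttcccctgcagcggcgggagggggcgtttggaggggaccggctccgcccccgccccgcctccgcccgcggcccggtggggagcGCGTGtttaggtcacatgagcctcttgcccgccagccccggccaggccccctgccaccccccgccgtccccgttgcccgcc
The RefSeq table held 7 windows for 6 of the 10 genes, and *Pecam1*, *Cdh5*, *Angpt1* and *Angpt2* had no entry. GGAATG was in none of the 7 windows and in 14.7% of all 32851 windows. CGGAAG was in the *Tie1* window, at -232 from the start, and in 16.9% of all windows. The hypoxia core was found 2 times in the *Kdr* window, at -131 and -89, 2 times in the *Vegfb* window, at -237 and -81, once in the *Flt1* window and 2 times in the window of an internal *Vegfa* start, with none in the *Vegfa* window shown or in those of *Tek* and *Tie1*. It was in 43.8% of all windows. A match of letters describes the window and is not a measured binding site.

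The mean log2 CPM of the 6 endothelial markers was 6.56, 6.65 and 6.56 in YT-FF and 6.48, 6.01 and 6.15 in YT-AKO. YT-AKO 1 was nearest to YT-FF. Over the 6 libraries, the Pearson correlation of a marker's log2 CPM with the mean of the other 5 was 0.764 to 0.933 for *Pecam1*, *Cdh5*, *Kdr*, *Flt1* and *Tek*, and -0.122 for *Tie1*. With the mean of the 6, *Vegfa* (0.889) and *Angpt1* (0.827) ran the same way, *Vegfb* (-0.835) the opposite way, and *Angpt2* was at 0.360. These values share the genotype difference and YT-AKO 2 and are a description over 6 libraries. Of 11857 genes with a mean of at least 5 CPM, genes with a pattern near the marker mean were *Casz1* (Pearson r = 0.996), *Smarca5* (0.994), *Krr1* (0.993) and *2010007H06Rik* (0.991). None of these 4 was called, with log2 fold changes of -0.90 to -0.37.

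In the edgeR fit, *Kdr* was the 1 call among the VEGF ligands, receptors and co-receptors. DESeq2, limma-voom and the GC correction each called 2 of the 5 receptors and co-receptors lower. The length correction and a block on the replicate number each left 0 calls among them. The median log2 fold change of the 5 was -0.44 in the edgeR fit and 0.05 after the length correction. *Flt4*, the receptor for the lymphatic factor VEGF-C, measured 17.1, 15.1 and 13.5 CPM in YT-FF and 12.03, 7.08 and 6.97 CPM in YT-AKO, a log2 fold change of -0.81 (edgeR adjusted p = 0.0611). The co-receptors *Nrp1* and *Nrp2* had log2 fold changes of 0.07 and -0.12 (adjusted p = 0.867 and 0.661). The 5 VEGF ligands had a median log2 fold change of 0.32. It was -0.01 with library totals alone, -0.07 with the length correction and -0.12 with the GC correction. In the edgeR fit *Pgf*, which encodes placental growth factor, was at 1.01 (adjusted p = 0.168), *Vegfd* at 0.43 and *Vegfc* at -0.35. In the angiopoietin and Tie pathway, edgeR called *Angpt1* alone of 6 genes, and DESeq2 called 2 of them lower. *Ptprb*, which encodes the vascular phosphatase that restrains Tie2, went from 113 ± 5.92 to 71.1 ± 20.4 CPM with no overlap (log2 fold change -0.66, adjusted p = 0.0623), and *Angpt4* was at 0.835 to 2.30 CPM (log2 fold change 0.22, adjusted p = 0.751).

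The list of 25 other endothelial markers lay on both sides of 0. None of the 25 was called in either direction by edgeR, and DESeq2 called 1 higher and 1 lower. The median log2 fold change was 0.13, turning to -0.17 with library totals alone, and 17 were above 0. *Nos3*, the endothelial nitric oxide synthase, measured 61.2, 62.7 and 58.4 CPM in YT-FF and 90.3, 69.6 and 99.3 CPM in YT-AKO, a log2 fold change of 0.51 (edgeR adjusted p = 0.0662). *Vwf*, which encodes von Willebrand factor, and *Rasip1*, needed for vessel lumens, were also higher in all YT-AKO libraries, at log2 fold changes of 0.46 and 0.50 (adjusted p = 0.0739 and 0.0781). *Fli1*, an ETS factor of endothelium and blood cells, was lower in all, at -0.67 (adjusted p = 0.0610). The summed level of the 25 was 1192 to 1313 CPM in YT-FF and 1307 to 1978 CPM in YT-AKO, highest in YT-AKO 2. In that library *Cldn5* was at 454 CPM and *Egfl7* at 245 CPM, compared with 53.9 to 111 and 78.3 to 112 CPM in the other libraries. By contrast, the summed level of the 6 markers was 662 to 690 CPM in YT-FF and 464 to 622 CPM in YT-AKO, lowest in YT-AKO 2.

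Genes of vessel subtypes were split. Of 11 genes of capillary endothelium and lipid transport, 3 rose and none fell in the edgeR fit (median log2 fold change 0.41), compared with 1 rise after the length correction and none with library totals alone (median 0.07). *Fabp5*, a fatty acid binding protein of capillaries and adipocytes, went from 93.0, 102 and 137 CPM to 199, 212 and 180 CPM (log2 fold change 0.83, edgeR adjusted p = 0.0270), *Gpihbp1*, which carries lipoprotein lipase across capillaries, rose by 1.25 (adjusted p = 0.0487; 0.71 without YT-AKO 2), and *Fabp4* rose by 1.34 (adjusted p = 0.0475; 0.89 without YT-AKO 2). After the length correction *Gpihbp1* was at 0.996 (adjusted p = 0.0778) and *Fabp4* at 1.41 (adjusted p = 0.0523), neither called. In fat, *Fabp4* is also an abundant gene of adipocytes. Of 9 arterial and Notch genes, *Notch1*, a receptor of arterial endothelium and many other cells, fell from 76.5, 83.7 and 63.3 CPM to 33.8, 8.73 and 31.3 CPM (log2 fold change -1.60, adjusted p = 0.0411; -1.20 without YT-AKO 2 and -1.14 with an adjusted p of 0.0736 after the length correction). The arterial connexin gene *Gja5* was at 0.85 (adjusted p = 0.0509) and the Notch target *Hey1* at 0.55 (adjusted p = 0.113), both higher in all YT-AKO libraries, and the Notch ligand gene *Jag1* at -0.45 (57.3 ± 3.53 to 42.0 ± 9.79 CPM, adjusted p = 0.133), lower in all of them. None of 6 venous, 10 tip cell and 7 tested lymphatic genes was called by edgeR, with medians of 0.31, -0.12 and -0.33, whereas DESeq2 called 1 tip cell gene lower and lymphatic genes 1 higher and 2 lower. Among these, *Prox1*, the factor that sets lymphatic identity, went from 8.99 ± 2.34 to 3.96 ± 1.76 CPM (log2 fold change -1.18, adjusted p = 0.0550), *Ackr1* of venules was at 0.71 (adjusted p = 0.116) and *Nid2* of the basement membrane at -1.04 (adjusted p = 0.104).

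Of 15 genes of mural cells, the pericytes and smooth muscle cells around vessels, 3 rose and none fell in the edgeR fit (median 0.35), but all 3 calls were lost with the GC correction and with library totals alone, each of which left 0 higher and 1 lower (median -0.01 with totals). *Vtn*, a pericyte gene, went from 27.7 ± 1.39 to 42.9 ± 6.30 CPM (log2 fold change 0.63, edgeR adjusted p = 0.0349), *Des*, which encodes the filament desmin, rose by 1.17 (adjusted p = 0.0377) and *Higd1b*, a pericyte gene, rose by 1.90 (adjusted p = 0.0480). *Mcam*, an adhesion gene of pericytes, smooth muscle and endothelium, went from 232 ± 15.7 to 154 ± 32.8 CPM, lower in all YT-AKO libraries (log2 fold change -0.59, adjusted p = 0.0604). *Notch3* and *Rgs5*, mural genes named after their values were seen, were also lower in all of them, at -0.90 and -0.27 (adjusted p = 0.135 and 0.229). *Des* is also a gene of skeletal muscle, and the summed level of 5 muscle genes was 110 to 402 CPM in YT-FF and 208 to 2940 CPM in YT-AKO, highest in YT-AKO 1, with *Acta1* called higher. *Higd1b* was not called without YT-AKO 2 (1.17, adjusted p = 0.0657). After the length correction *Vtn* was at 0.29 (adjusted p = 0.171) and *Higd1b* at 1.43 (adjusted p = 0.0799), and neither was called. The summed level of the 15 was 930 to 984 CPM in YT-FF and 901 to 962 CPM in YT-AKO, so that the groups overlapped.

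Among 13 other angiogenic ligands, 1 rose and 1 fell in the edgeR fit. *Fgf2*, a basic fibroblast growth factor that stimulates endothelium, fell from 53.8, 53.2 and 49.6 CPM to 28.4, 20.1 and 26.3 CPM, a log2 fold change of -1.07 (SE 0.173, edgeR adjusted p = 0.0177; -0.84 and 0.0201 after the length correction). *Ang*, which encodes the secreted ribonuclease angiogenin, rose from 3.58, 6.02 and 5.15 CPM to 10.6, 12.3 and 8.75 CPM (log2 fold change 1.10, adjusted p = 0.0308), a call lost after the length correction (0.66, adjusted p = 0.104). *Fgf1* was at -0.72 (adjusted p = 0.0710). Of 11 inhibitors of angiogenesis, *Serpinf1*, which encodes the secreted factor PEDF, rose from 137, 160 and 192 CPM to 279, 342 and 357 CPM. Its log2 fold change was 1.0 (adjusted p = 0.0203) and 0.74 after the length correction (adjusted p = 0.0374). *Vash1*, an endothelial inhibitor, was lower in all YT-AKO libraries, at -1.61 (adjusted p = 0.0752).

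Genes known to control *Vegfa*, and other targets of the hypoxia-inducible factors (HIFs), did not go one way. Of 9 regulators, *Esrra*, a nuclear receptor of oxidative metabolism, rose from 69.4 ± 3.20 to 106 ± 16.4 CPM (log2 fold change 0.61, edgeR adjusted p = 0.0380). *Esrra* was not called with library totals alone (0.30, edgeR adjusted p = 0.310). *Hif1a* and *Epas1*, which encode the HIF alpha subunits, were at -0.20 and -0.26 (adjusted p = 0.335 and 0.318), their partner *Arnt* at -0.74 (adjusted p = 0.0818) and *Egln1*, which encodes an oxygen sensor, at 0.51 (adjusted p = 0.0568). Of 12 HIF targets, 3 rose and 1 fell. *Pgk1* and *Ldha*, genes of glycolysis, rose by 1.08 and 1.02 (adjusted p = 0.0185 and 0.0249), *P4ha1*, a collagen hydroxylase gene, rose by 1.22 (adjusted p = 0.0190), and *Kdm3a*, which encodes a histone demethylase, fell, with a log2 fold change of -0.75 (adjusted p = 0.0340), a call lost after the length correction. Of all 179 tested genes on the lists other than the 10, 25 rose and 6 fell, where 12.6% of all tested genes were called higher and 9.01% lower. With library totals alone the calls were 0 higher and 1 lower on the mural list, 0 and 3 among the ligands, and 3 and 4 among the HIF targets. No call on the vascular, ligand, inhibitor, regulator or HIF target lists was left without YT-FF 1 or without YT-FF 2. Over all tested genes, 0% were called lower without YT-FF 1 and 0.0117% without YT-FF 2, and 0 genes were called higher in either fit. Without YT-FF 3, the calls left were 1 of the angiopoietin and Tie pathway (*Angpt1*), 1 of the capillary list, 1 ligand, 1 inhibitor and 2 HIF targets. None was left on the mural, Notch and regulator lists. The Notch list had no call without YT-AKO 3 and the regulator list none without YT-AKO 1 or 3, whereas the VEGF receptors had 3 lower calls without YT-AKO 1 and the mural list 2 higher and 2 lower without YT-AKO 2.

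**Figure D4:**
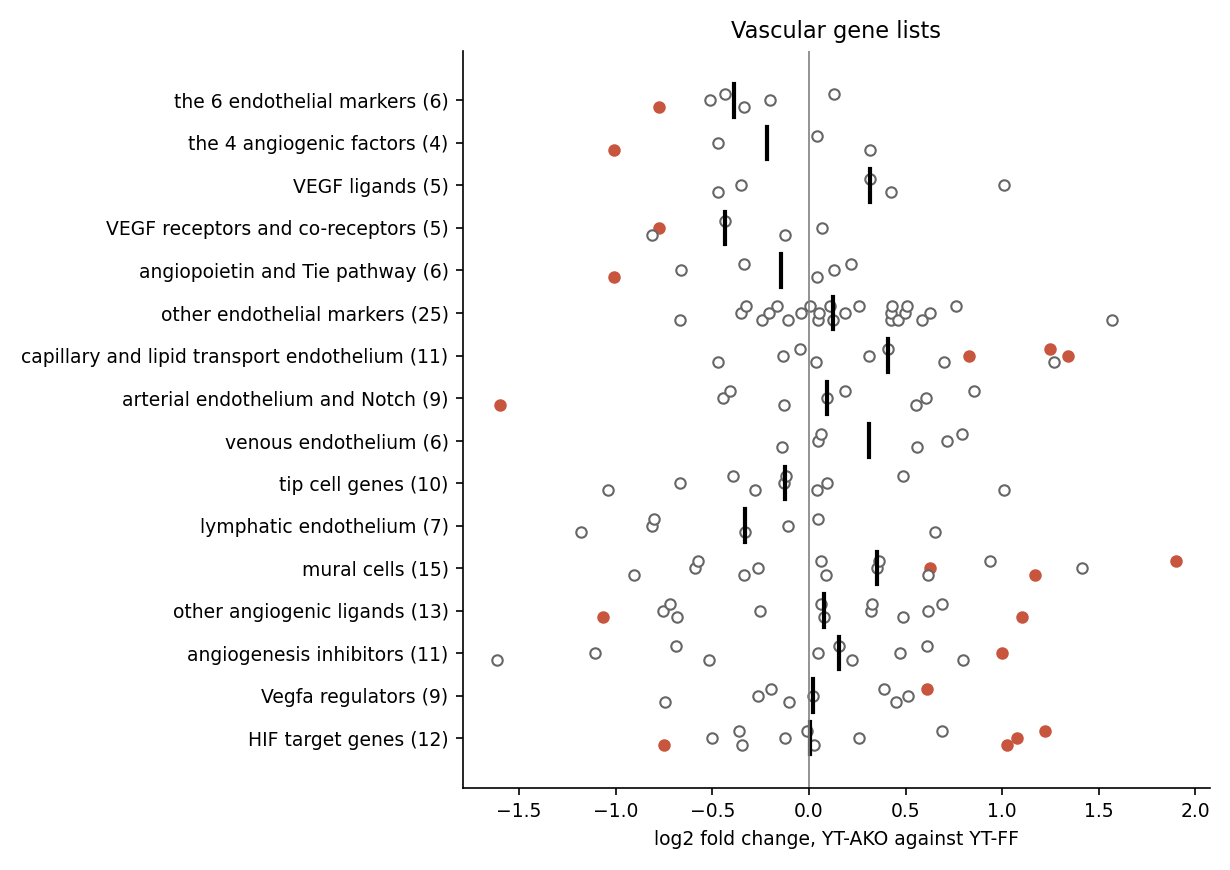
Each circle is the edgeR log2 fold change of one gene of a list, filled where the adjusted p was under 0.05, and the vertical bar is the list's median. Numbers in brackets are the tested genes of a list, and a gene can be on more than one list. The 6 endothelial markers lie mostly left of 0, whereas the 25 other endothelial markers spread on both sides with no filled circle.

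Lists for other cell types held calls as well. The 6 genes of beige and brown adipocytes all rose, and their summed level was 153 to 226 CPM in YT-FF and 1644 to 3607 CPM in YT-AKO, highest in YT-AKO 2. The 8 adipocyte genes summed to 8191 to 10896 CPM and 12021 to 15136 CPM, with 2 called higher (*Lipe* and *Pnpla2*; none with library totals alone). The 7 macrophage genes summed to 1176 to 1364 CPM and 1765 to 2472 CPM, with *C1qa* and *C1qb* called higher. The 7 fibroblast genes overlapped, at 3863 to 4853 CPM and 4533 to 7245 CPM, with 2 called higher and 1 lower. The 6 B and T cell genes (657 to 788 CPM and 449 to 785 CPM) overlapped, with *Ms4a1*, a B cell gene, called lower. Genes of Schwann cells (238 to 303 and 193 to 292 CPM) and red blood cells (250 to 917 and 597 to 1587 CPM) overlapped and held no call. Epithelial genes summed to at most 3.49 CPM, with *Krt5* at 0 in every library. The part of these shifts in the levels of the endothelial genes was not tested.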

How the data were processed

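Bulk RNA-seq of total RNA from scWAT of 3 YT-FF and 3 YT-AKO mice was used, with groups taken from the genotype label. The authors mapped paired-end reads to mm10 (GRCm38) with HISAT2 and counted fragments on exons of the GENCODE vM25 annotation with featureCounts 2.0.1, without strand and without fragments of several places or genes. The deposited values are raw counts per gene, with no normalization. Of 55401 genes, 55141 were matched to symbols and 30027 had at least 1 count.

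Counts were tested in R 4.3.3 with edgeR 4.0.16 (TMM, filterByExpr with minimum count 10 and minimum total 15, quasi-likelihood test without robust estimation). The biological coefficient of variation was 0.288. The deepest library held 21838493 and the shallowest 17740987 fragments, and 3 counts are 0.128 to 0.177 CPM, counting error only. Alternatives were DESeq2 1.42.0, limma-voom (limma 3.58.1), upper-quartile scaling, library totals alone, no filter, robust estimation, 10 or more counts in all libraries, a block on the replicate number, a gene length correction (spline of log2 level on length, 6 degrees of freedom, fitted per library), both together, and each library left out. A GC correction (over the 16791 tested genes with a GC value, 99.9%) and the length correction without YT-AKO 2 were added after the data were seen. Ratios added 0.5 to each count. The tests were checked on simulated counts.

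The 10 genes and the lists were chosen with earlier results of these data known. Named genes are the 10, *Yap1* and *Wwtr1*, up to 4 genes of each list with the smallest edgeR p, and the 5 genes most like the marker mean. Some genes that these rules name are left out of the text. Other list genes were named after their values were seen. Results describe the spread between 3 libraries per genotype. Proteins of the 10 genes were not used here.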

Additional observations from a re-analysis of the deposited data

How the results depend on the processing

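None of the 10 genes was called higher under any of the 18 alternatives. The number called lower, 2 in the reported fit, was 1 with the gene length correction, with all libraries or without YT-AKO 2, and 0 to 3 with single libraries left out (0 without YT-FF 1 or YT-FF 2, 1 without YT-FF 3 or YT-AKO 3, 3 without YT-AKO 1). *Angpt1* was called in 14 of 18 alternatives and *Kdr* in 10, DESeq2 among them for both (log2 fold change -1.02 and -0.79, adjusted p = 2.93e-05 and 0.00660). The median of the 6 endothelial markers, -0.39, stayed below 0 throughout. It was -0.71 with library totals alone, -0.13 with the length correction, -0.16 with that correction and without YT-AKO 2, and -0.54 to -0.28 with single libraries left out. Over all tested genes, 2121 were called higher and 1515 lower. These counts were 1137 and 2828 with library totals alone, 790 lower with the length correction, and 0 to 2925 higher and 0 to 2424 lower with single libraries left out. Without YT-FF 1 no gene was called, although 4665 had an unadjusted edgeR p under 0.05. Without YT-FF 2, 0 genes were called higher and 2 lower, and 4507 had such an unadjusted p.

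Direction turned for 4 genes that were never called in the reported fit. *Flt1* was at 0.050 with the length correction and 0.049 with that correction and without YT-AKO 2. *Tie1* was at -0.19 with library totals alone and -0.18 with the GC correction. *Vegfb* was at -0.0051 with library totals alone, -0.074 with the length correction and -0.12 with the GC correction. *Angpt2* was at -0.26 with library totals alone, and with single libraries left out it ran from -0.071 without YT-AKO 3, through -0.037 without YT-AKO 1, to 0.23 without YT-AKO 2. The cause was not tested. The 4 ratio differences kept their direction in every alternative tried, and that of *Vegfa* to *Vegfb* moved most, from -1.09 without YT-AKO 1 to -0.41 with the length correction.

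With the replicate number as a block, 24 genes were called higher, 9 lower and none of the 10 (34, 13 and 0 with the length correction too). In that block fit with the length correction, the marker median was -0.14, *Flt1* 0.026, *Vegfb* -0.081 and *Angpt2* -0.013. Deviations of same-numbered libraries from their group means correlated at 0.126, -0.118 and -0.0893, and not every library correlated best with its own number. The sample titles give a replicate number and no other pairing. With 3 libraries per group, these correlations cannot show whether same-numbered samples shared anything else, and this was not tested. With a block, the smallest exact p of a ratio was 0.25.

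Each of the 10 genes had at least 91 counts in every library, and 3 libraries per genotype limit the precision of every comparison.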
